A study of Homo sapiens with 6 samples.

Results

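The noncoding genes GAS5, SNHG1, SNHG5, SNHG6, SNHG8, SNHG12, SNHG15, SNHG16, SNHG29 and ZFAS1, whose introns carry small nucleolar RNAs (snoRNAs), were followed in U2OS cells depleted of SURF2. U2OS is a human osteosarcoma cell line, and SURF2 is a nucleolar protein whose relation to MDM2, the ubiquitin ligase of p53, under nucleolar stress is the subject of the study. The 10 genes were taken by name from a table of 58051 genes, and all 10 passed the filter on low counts that left 17561 genes for testing. The siSURF2 group held 3 libraries from cells given siRNA against SURF2, and the siSCR group held 3 libraries from cells given a scrambled siRNA. Both groups were grown in DMEM with 10% fetal bovine serum and were transfected 2 times, 49 h apart, over 96 h. Polyadenylated RNA was sequenced from all 6 libraries. The labels do not say how many siRNA sequences were used or whether the numbered libraries came from separate cultures. The p-values therefore reflect only library-to-library spread, part of which may be technical.

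SnoRNAs are short stable RNAs of the nucleolus. Box C/D snoRNAs guide 2′-O-methylation and box H/ACA snoRNAs guide pseudouridylation of ribosomal RNA, each within a protein complex called a snoRNP. In vertebrates most are cut out of introns of a host transcript: splicing frees the intron, the lariat is opened, and exonucleases trim it back to the snoRNP. Some hosts encode proteins, many of them of the ribosome or the translation machinery. The hosts described here are regarded as noncoding, and for several of them the spliced exons that remain are exported, engaged by ribosomes and degraded by nonsense-mediated decay, as is well described for GAS5 and SNHG1. Many hosts of both kinds start with a cytosine followed by pyrimidines, the 5′ terminal oligopyrimidine (TOP) tract that couples translation of ribosomal protein mRNAs to mTOR signalling. The libraries hold polyadenylated RNA and not the mature snoRNAs, which have no poly(A) tail. Counts by gene do not separate spliced host RNA from host RNA that keeps an intron.

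The start of a host gene is shown because the TOP tract is the feature that the class is known for. RefSeq start windows matched 8 of the 10 genes by symbol (GRCh38.p14, 30 bases before and 30 bases from the annotated start, 5′ to 3′ on the strand of the gene). Capitals mark a C followed by at least 4 bases that are C or T, beginning within 15 bases of the annotated start. A run that reached further upstream was marked and counted from its first C within that limit. The strand of the gene alone was searched.
SNHG29 (chr17:16438957-16439016, plus strand): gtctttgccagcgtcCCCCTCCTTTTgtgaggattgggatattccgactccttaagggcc
ZFAS1 (chr20:49278612-49278671, plus strand): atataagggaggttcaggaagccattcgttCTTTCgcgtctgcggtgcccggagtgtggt
SNHG5 (chr6:85678704-85678763, minus strand): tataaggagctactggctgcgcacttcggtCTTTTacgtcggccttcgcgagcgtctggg
SNHG16 (chr17:76557734-76557793, plus strand): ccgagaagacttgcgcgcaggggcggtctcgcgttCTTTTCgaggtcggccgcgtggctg
SNHG8 (chr4:118278732-118278791, plus strand): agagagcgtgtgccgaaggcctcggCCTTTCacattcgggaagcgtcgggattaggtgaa
SNHG12 (chr1:28581844-28581903, minus strand): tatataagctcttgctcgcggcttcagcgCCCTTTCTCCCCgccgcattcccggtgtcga
GAS5 (chr1:173869016-173869075, minus strand): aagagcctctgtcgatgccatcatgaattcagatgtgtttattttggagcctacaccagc
SNHG1 (chr11:62855856-62855915, minus strand): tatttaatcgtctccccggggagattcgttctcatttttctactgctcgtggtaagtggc
Such a run was present in 6 of these 8 windows (75.0%), in 15253 of all 35116 promoter windows in the table (43.4%) and in 69 of 78 windows of ribosomal protein genes (88.5%). With the annotated first base counted as 0, the run began at 0 in SNHG5 and ZFAS1 and at −1 in SNHG12. It began at −5 in SNHG8 and at 5 in SNHG16. In SNHG29 the marked part begins at −15, the limit of the search. The base before it is also a C, so the run itself begins further upstream, and it ended before the annotated start. A run that does not begin at the first transcribed base is not shown to be a TOP tract. The RefSeq start of GAS5 lies upstream of its span in GENCODE 29, so the absence of the run in that window says only that these letters are not there.

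SNHG29 and ZFAS1, for which the fitted differences were the most precise of those above 0.5 on the log2 scale, each carry 3 box C/D snoRNAs, and these are shown because they are what splicing of the 2 hosts releases. The sequences are the GENCODE 29 transcripts on GRCh38, and capitals mark the core of the C box (TGATGA) and the last D box (CTGA). SNORD49B, SNORD49A and SNORD65 lie in SNHG29, and SNORD12C, SNORD12B and SNORD12 lie in ZFAS1.
SNORD49B (chr17:16439505-16439576, plus strand): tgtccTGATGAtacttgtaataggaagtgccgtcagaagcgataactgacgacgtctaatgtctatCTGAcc
SNORD49A (chr17:16440036-16440106, plus strand): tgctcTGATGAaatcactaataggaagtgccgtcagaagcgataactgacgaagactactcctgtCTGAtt
SNORD65 (chr17:16441226-16441298, plus strand): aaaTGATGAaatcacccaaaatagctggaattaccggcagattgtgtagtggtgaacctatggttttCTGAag
SNORD12C (chr20:49278940-49279028, plus strand): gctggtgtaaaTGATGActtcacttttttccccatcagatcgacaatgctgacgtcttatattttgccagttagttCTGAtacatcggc
SNORD12B (chr20:49280319-49280409, plus strand): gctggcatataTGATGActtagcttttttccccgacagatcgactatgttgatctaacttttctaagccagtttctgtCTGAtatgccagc
SNORD12 (chr20:49280683-49280772, plus strand): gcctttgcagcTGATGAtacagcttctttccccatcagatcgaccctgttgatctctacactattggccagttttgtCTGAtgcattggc

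The siSURF2 libraries held between 18151554 and 19688089 gene counts and the siSCR libraries between 17123333 and 19573786. SURF2 itself stood at 3.74, 3.56 and 3.20 CPM (counts scaled to a common library size with TMM factors) in siSURF2 and at 36.2, 35.8 and 32.3 CPM in siSCR libraries (log2 fold change −3.31 ± 0.10 SE). Of the markers of a mesenchymal tumour line, VIM was at 2014 ± 56.7 CPM in siSURF2 and 1964 ± 52.6 CPM in siSCR cells (SD, n = 3 each), whereas TWIST1 was at 0 in all 6 libraries and COL1A2 was below the filter. Of the 5 such markers tested, 3 were higher in siSURF2 cells, among them PRRX1 and SPARC with log2 fold changes of 1.17 ± 0.14 and 0.47 ± 0.06 (SE). The 5 epithelial markers summed to 1002 to 1078 CPM in siSURF2 and 1465 to 1589 CPM in siSCR libraries, nearly all of it KRT8 and KRT18, which were lower; EPCAM was higher, at 8.74 ± 0.240 CPM in siSURF2 and 4.41 ± 0.381 CPM in siSCR cells. The 7 blood and endothelial markers summed to 0.929 to 1.20 CPM in siSURF2 and 1.87 to 2.38 CPM in siSCR libraries, with CD3E, HBB and LYZ at 0 in all 6. The siSURF2 library numbered 2 stood apart from the other 2 of its group: the chi-square per degree of freedom of its counts over genes was 8.87 and 10.3 against them, while the other pairs within groups lay between 2.53 and 4.49.

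Of the 10 host RNAs, 7 were higher in siSURF2 cells at an adjusted p under 0.05, none was lower, and 3 did not pass (edgeR quasi-likelihood test, adjusted over all 17561 genes). SNHG5, ZFAS1 and SNHG29 were about 1.5-fold higher, SNHG8 and GAS5 about 1.3-fold, and SNHG12 and SNHG16 about 1.2-fold, while SNHG1, SNHG6 and SNHG15 did not pass. Levels are shares of all RNA in bulk libraries, in which fewer cells of a type and less RNA per cell cannot be told apart. Over all genes tested 25.8% were called higher and 26.2% lower, and over the 2298 long noncoding genes tested 16.5% were called higher and 17.0% lower. The median log2 fold change was 0.33 over the 10 hosts, 0.0042 over all genes and 0.025 over the long noncoding genes. All siSURF2 libraries lay above all siSCR libraries for 6 of the 10, an arrangement that 28.6% of all genes tested showed. None of the 10 was lower at an unadjusted p under 0.05 either, or by DESeq2 or limma-voom. With library sizes set by the spike-in RNAs of the External RNA Controls Consortium (ERCC), 0 of the 10 were called higher by edgeR and 3 were at an unadjusted p under 0.05; the fitted changes then ran between −0.12 and 0.58.

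**Figure D1:**
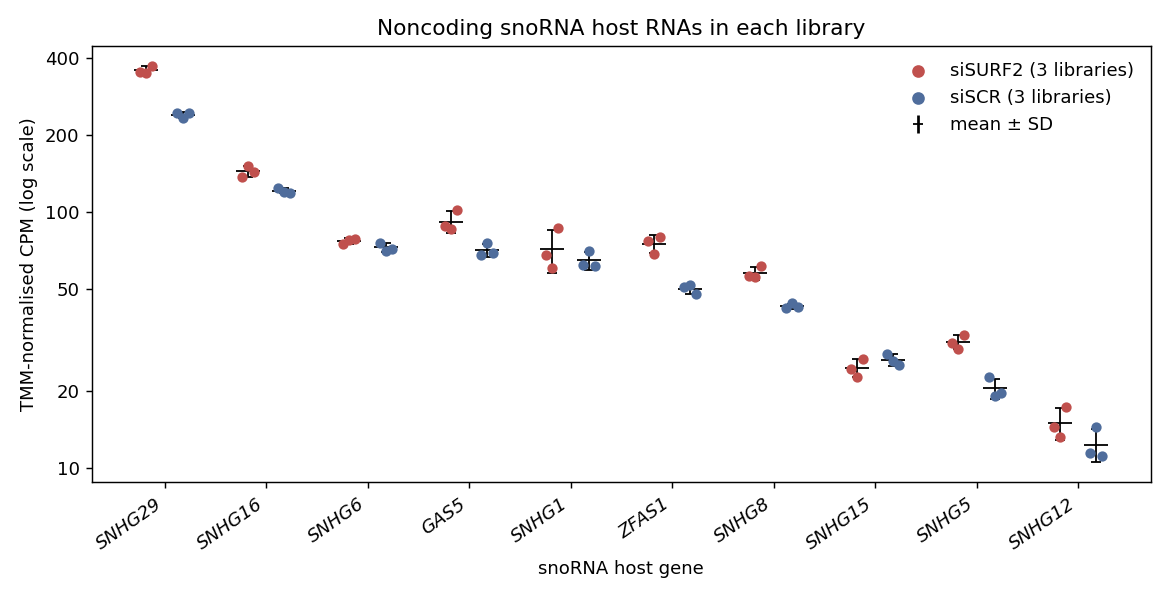
Level of each host RNA in each library, as TMM-scaled CPM on a log axis, for siSURF2 (red, left of each pair) and siSCR (blue, right), with a bar for the mean and SD of 3 libraries. The siSURF2 points of SNHG29, SNHG16, GAS5, ZFAS1, SNHG8 and SNHG5 lie above all their siSCR points, and those of SNHG6, SNHG1, SNHG15 and SNHG12 overlap them.

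Hosts that carry only or mainly box C/D snoRNAs are described first. SNHG29 (ENSG00000175061, listed as LRRC75A-AS1 in GENCODE 29; chr17:16438822-16478678, plus strand) was the most abundant of the 10. It stood at 354, 348 and 373 CPM in siSURF2 and at 245, 233 and 244 CPM in siSCR libraries. The groups were well apart, and the spread within each was small beside the gap between them. The fitted log2 fold change was 0.58 ± 0.05 (SE, adjusted p = 6.26e-11), a 1.49-fold difference between means of 358 ± 13.2 and 240 ± 6.57 CPM (SD, n = 3 each).

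ZFAS1 (ENSG00000177410, chr20:49278178-49295738, plus strand) starts head to head with ZNFX1 on the other strand. It stood at 77.0, 68.7 and 80.1 CPM in siSURF2 and at 50.6, 51.8 and 47.6 CPM in siSCR libraries. Its lowest siSURF2 library, the one numbered 2, was still above the highest siSCR library. The log2 fold change was 0.59 ± 0.06 (SE, adjusted p = 6.20e-09).

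SNHG5 (ENSG00000203875, chr6:85660950-85678748, minus strand) hosts SNORD50A and SNORD50B. It stood at 30.6, 29.2 and 33.1 CPM in siSURF2 and at 22.6, 19.0 and 19.6 CPM in siSCR libraries. The groups did not overlap, and with a log2 fold change of 0.61 ± 0.08 (SE, adjusted p = 2.63e-07) it had the highest fitted value of the 10. The standard errors of SNHG5, ZFAS1 and SNHG29 are wider than the distances between their 3 values.

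GAS5 (ENSG00000234741, chr1:173863900-173868882, minus strand), first described in mouse cells as a transcript that accumulates on growth arrest, carries the most snoRNAs of the 10. It stood at 87.8, 85.4 and 102 CPM in siSURF2 and at 67.7, 75.4 and 69.1 CPM in siSCR libraries. The groups lay apart, with the siSURF2 library numbered 3 above the other 2 of its group. The log2 fold change was 0.37 ± 0.06 (SE, adjusted p = 1.65e-05), and its 95% interval ran between 0.25 and 0.50.

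SNHG16 (ENSG00000163597, chr17:76557766-76565348, plus strand) hosts SNORD1A, SNORD1B and SNORD1C. It stood at 137, 152 and 144 CPM in siSURF2 and at 124, 120 and 119 CPM in siSCR libraries. The groups did not overlap, but the difference was one of the smallest that passed, with a log2 fold change of 0.25 ± 0.05 (SE, adjusted p = 1.71e-04). It was the only one of the 10 that was highest in the siSURF2 library numbered 2.

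SNHG1 (ENSG00000255717, chr11:62851988-62855914, minus strand) shares a divergent start with SLC3A2 and hosts SNORD25 to SNORD31 and SNORD22. It stood at 67.6, 60.2 and 86.7 CPM in siSURF2 and at 61.8, 70.5 and 61.5 CPM in siSCR libraries. The groups overlapped: 1 siSURF2 library was above all others and another was below every siSCR library. The log2 fold change of 0.15 ± 0.14 (SE, adjusted p = 0.44) did not pass, and its 95% interval, −0.13 to 0.43, holds both no difference and the value of GAS5. Without the siSURF2 library numbered 2 it passed, at 0.26 (adjusted p = 0.020), and without the siSURF2 library numbered 3 it stood at −0.015.

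SNHG6 (ENSG00000245910, chr8:66921684-66926398, minus strand), host of SNORD87, stood at 74.8, 77.7 and 78.3 CPM in siSURF2 and at 75.9, 70.2 and 71.9 CPM in siSCR libraries. The groups overlapped by 1 siSCR library. The log2 fold change of 0.08 ± 0.06 (SE, adjusted p = 0.21) did not pass, and its 95% interval, −0.02 to 0.19, lies below the fitted values of all 7 that did. With upper-quartile scaling, under which the median of all genes moved to 0.050, SNHG6 passed at an adjusted p of 0.042.

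Of the hosts that carry box H/ACA snoRNAs, SNHG12 (ENSG00000197989, chr1:28578538-28583132, minus strand) also hosts the box C/D snoRNA SNORD99 and had the lowest level of the 10. It stood at 14.4, 13.2 and 17.3 CPM in siSURF2 and at 11.4, 14.4 and 11.1 CPM in siSCR libraries, on 255 to 346 and 191 to 269 counts. The groups overlapped, since the siSCR library numbered 2 was level with the middle siSURF2 library. The log2 fold change of 0.28 ± 0.11 (SE, adjusted p = 0.039) passed only narrowly. The call was lost by DESeq2 with the value unchanged at 0.28 (adjusted p = 0.081), and with lower values without the siSURF2 library numbered 3 (0.16, adjusted p = 0.27), the siSCR library numbered 1 (0.22, adjusted p = 0.16) or the siSCR library numbered 3 (0.20, adjusted p = 0.18). Without both libraries numbered 3 the value was 0.092 (adjusted p = 0.59).

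SNHG8 and SNHG15 each carry a single box H/ACA snoRNA. SNHG8 (ENSG00000269893, chr4:118278709-118279823, plus strand), host of SNORA24, stood at 55.9, 55.5 and 61.4 CPM in siSURF2 and at 42.0, 43.9 and 42.4 CPM in siSCR libraries. The groups were far apart, with a log2 fold change of 0.43 ± 0.06 (SE, adjusted p = 9.95e-07). SNHG15 (ENSG00000232956, chr7:44983023-44986961, minus strand), host of SNORA9, stood at 24.3, 22.7 and 26.7 CPM in siSURF2 and at 27.8, 26.1 and 25.2 CPM in siSCR libraries. It was the only one of the 10 with a fitted value below 0, −0.10 ± 0.08 (SE, adjusted p = 0.30). The groups overlapped and the 95% interval ran between −0.25 and 0.05. That interval lies below the fitted values of the 7 that passed, but its upper end is close to 0.06, where the interval of SNHG12 begins.

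**Figure D2:**
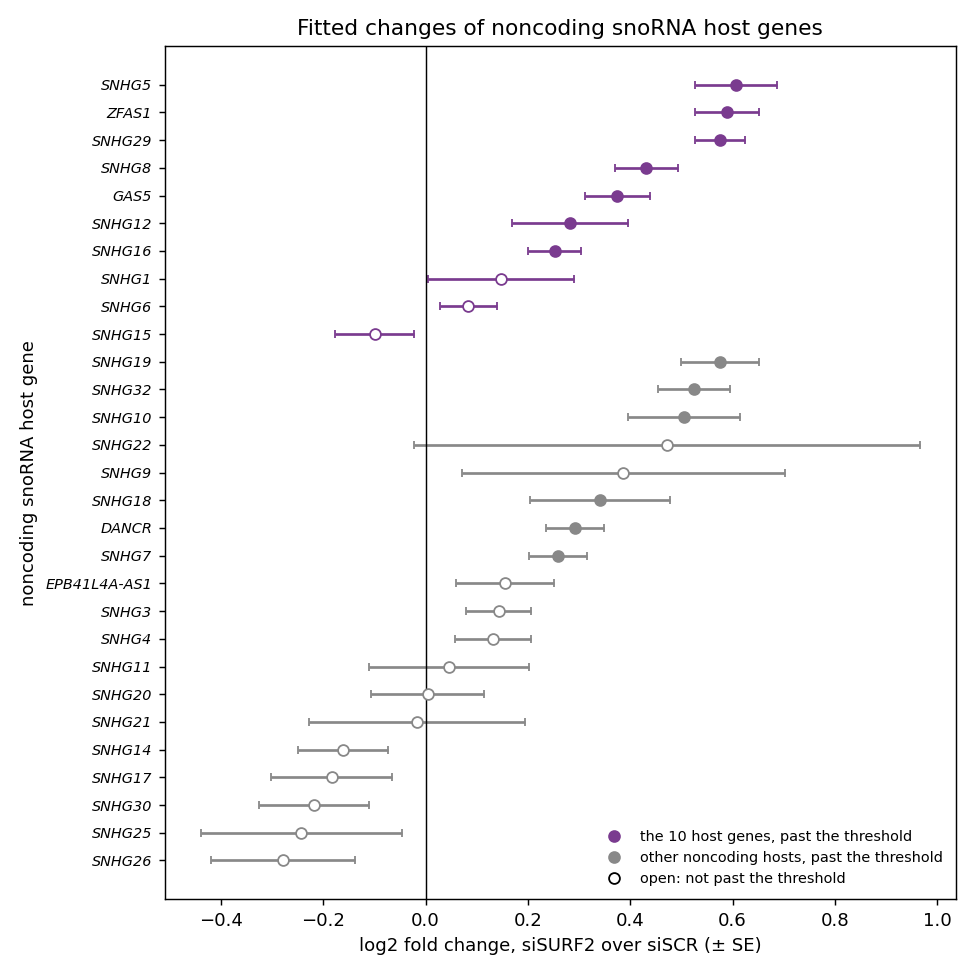
Fitted log2 fold change, siSURF2 over siSCR, of the 10 host genes (purple) and of 19 other noncoding hosts that were tested (grey), with bars for the standard error; filled points passed an adjusted p of 0.05. The 10 run between −0.10 for SNHG15 and 0.61 for SNHG5, and no filled point lies below 0.

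The 10 RNAs together made up 923, 912 and 1002 CPM of the siSURF2 libraries and 729, 724 and 711 CPM of the siSCR libraries. The sum was 1.31-fold higher in siSURF2 cells, 946 ± 49.1 CPM, against 721 ± 9.37 CPM in siSCR cells (SD, n = 3 each), and the groups did not overlap. The sum is given as a description, with no test. SNHG29 supplied 38.3%, 38.2% and 37.2% of the sum in siSURF2 and 33.6%, 32.1% and 34.3% in siSCR libraries. The RNAs thus did not keep the same proportions in both groups.

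Ratios within a library do not depend on how the libraries were scaled. SNHG15 was taken as the denominator because it had the lowest fitted value of the 10, which raises every ratio to it, so the ratios describe how far the RNAs at the ends of the range moved relative to each other. SNHG29 stood at 14.5, 15.4 and 14.0 counts for each count of SNHG15 in siSURF2, and at 8.81, 8.92 and 9.69 in siSCR libraries. For ZFAS1 the ratio to SNHG15 was 3.17, 3.03 and 3.00 in siSURF2 and 1.82, 1.98 and 1.89 in siSCR libraries, and for SNHG5 it was 1.26, 1.29 and 1.24 in siSURF2 and 0.812, 0.730 and 0.780 in siSCR libraries. The groups did not overlap for these 3 ratios.

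Exon lengths were merged over all annotated transcripts of a gene. SNHG1 had 3756 such bases in 3 blocks and SNHG12 had 4266 in 2 blocks, most of their spans. In both, most hosted snoRNAs overlap these bases, so the order of the genes per kilobase depends on this annotation. Per kilobase of annotated exon, the level in siSURF2 cells was 95.3 ± 3.50 CPM per kb for SNHG29, followed by SNHG8 at 62.4 ± 3.58 and SNHG6 at 61.7 ± 1.52, which did not differ beyond their spread. ZFAS1 at 33.5 ± 2.63, SNHG16 at 26.9 ± 1.37 and GAS5 at 25.3 ± 2.45 CPM per kb came next, SNHG16 and GAS5 within their spread. SNHG1 at 19.0 ± 3.64, SNHG5 at 11.05 ± 0.706, SNHG15 at 6.73 ± 0.555 and SNHG12 at 3.51 ± 0.496 CPM per kb closed the order. In siSCR cells SNHG29 was at 64.0 ± 1.75, SNHG6 at 58.3 ± 2.33 and SNHG8 at 46.3 ± 1.12 CPM per kb. SNHG16 at 22.6 ± 0.525 and ZFAS1 at 22.3 ± 0.952 were within their spread there, as were SNHG5 at 7.27 ± 0.672 and SNHG15 at 7.23 ± 0.366 CPM per kb (SD, n = 3 libraries throughout). GAS5 at 19.5 ± 1.13 and SNHG1 at 17.2 ± 1.36 CPM per kb were also within their spread. GAS5 was nevertheless above SNHG1 in each siSCR library (18.7 over 16.5, 20.8 over 18.8 and 19.0 over 16.4 CPM per kb). In siSURF2 cells SNHG8 thus stood level with SNHG6, ZFAS1 above SNHG16, SNHG16 level with GAS5 and SNHG5 above SNHG15. In siSCR cells SNHG8 stood below SNHG6, ZFAS1 level with SNHG16, SNHG16 above GAS5 and SNHG5 level with SNHG15. GAS5 stood above SNHG1 in every library of both groups.

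The libraries of a group were not alike across the 10 RNAs. Within siSURF2, the library numbered 3 was highest for 9 of the 10 and the library numbered 2 was lowest for 8. Within siSCR, the libraries numbered 1 and 2 were highest for 5 each. The nuclear-retained RNAs MALAT1 and NEAT1 moved in the same libraries: MALAT1 stood at 226, 143 and 324 CPM in siSURF2 and at 198, 246 and 213 CPM in siSCR libraries, and NEAT1 at 995, 636 and 1415 CPM in siSURF2 and at 967, 1196 and 995 CPM in siSCR libraries. Both were highest in the siSURF2 library numbered 3 and, within siSCR, in the one numbered 2, as were 5 of the 10 hosts: GAS5, SNHG1, SNHG8, SNHG12 and ZFAS1. KCNQ1OT1, also nuclear-retained, was highest in the siSURF2 library numbered 1. It stood at 8.96, 6.66 and 7.85 CPM in siSURF2 and at 6.13, 7.76 and 7.19 CPM in siSCR libraries. Neither MALAT1 nor NEAT1 passed between the groups, nor did KCNQ1OT1, at 7.82 ± 1.15 CPM in siSURF2 and 7.02 ± 0.825 CPM in siSCR cells. Mitochondrially encoded genes took 4.70%, 2.73% and 4.74% of the gene counts in siSURF2 and 3.16%, 3.50% and 2.91% in siSCR libraries. The part of these differences between libraries in the host results was not tested; without the siSURF2 library numbered 2, 8 of the 10 were called higher and the median was 0.40.

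**Figure D3:**
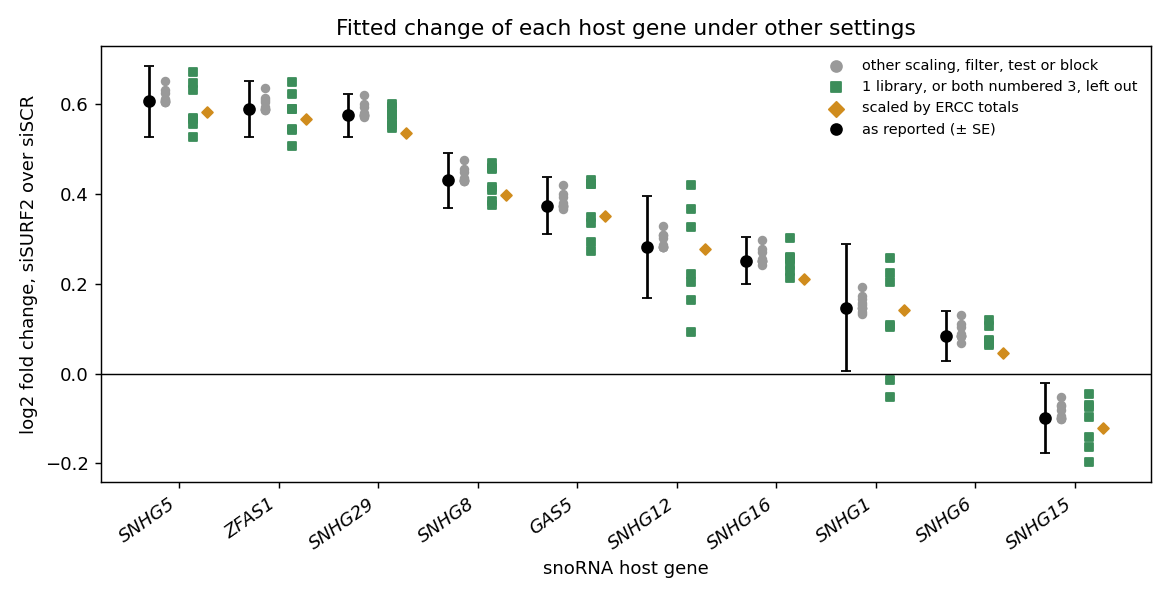
Fitted log2 fold change, siSURF2 over siSCR, of each host gene as reported (black, with its standard error), under other scalings, filters, tests or the replicate block (grey), with 1 library or both libraries numbered 3 left out (green) and with ERCC totals as library sizes (orange). The values of SNHG5, ZFAS1 and SNHG29 stay above 0.5, and those of SNHG1 reach −0.053.

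Several hosts overlap or adjoin genes on the other strand, and the strand setting of the authors' counting is not stated, so reads from shared bases cannot be told apart. ZNFX1, an RNA helicase gene whose start lies 248 bases from that of ZFAS1 and which shares 249 exon bases with it, was at 142 ± 3.20 CPM in siSURF2 and 145 ± 1.84 CPM in siSCR cells and did not pass (log2 fold change −0.03, adjusted p = 0.60). LRRC75A shares 452 exon bases with SNHG29 and was at 8.55 ± 0.526 CPM in siSURF2 and 7.33 ± 0.198 CPM in siSCR cells, which did not pass (adjusted p = 0.12), and ENSG00000266651, inside the span of SNHG29, did not pass either (adjusted p = 0.85).

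Genes at or near the other hosts moved in different ways. ZBTB37, a zinc finger gene whose start is 800 bases from that of GAS5, stood at 19.4, 17.8 and 19.7 CPM in siSURF2 and at 28.4, 30.9 and 31.9 CPM in siSCR libraries. It was lower where GAS5 was higher, with a log2 fold change of −0.68 ± 0.08 (SE, adjusted p = 2.04e-08). ZBTB37 lost this call with ERCC totals as library sizes (−0.73 ± 0.28 SE, adjusted p = 0.080 by edgeR). SLC3A2, the heavy chain of amino acid transporters, starts 188 bases from SNHG1 and was at 240 ± 7.30 CPM in siSURF2 and 231 ± 7.77 CPM in siSCR cells, which did not pass (adjusted p = 0.38). TRNAU1AP, a selenocysteine tRNA-associated protein gene that shares 8 exon bases with SNHG12, was lower, at 21.7 ± 1.22 CPM in siSURF2 and 25.4 ± 1.64 CPM in siSCR cells (log2 fold change −0.23 ± 0.08 SE, adjusted p = 0.016), a call that was lost without the siSURF2 library numbered 1 (0.080) or 2 (0.073) or the siSCR library numbered 3 (0.051). ENSG00000267546, an antisense gene whose start is 83 bases from that of SNHG16, was higher on 12 to 18 counts in siSURF2 and 6 to 9 counts in siSCR libraries (log2 fold change 1.05 ± 0.41 SE, adjusted p = 0.032). It lost this call by DESeq2 (adjusted p = 0.10) and without the siSURF2 library numbered 1 (0.11) or 3 (0.086) or the siSCR library numbered 1 (0.093) or 3 (0.098). MCMDC2, which shares 365 exon bases with SNHG6, did not pass (0.728 CPM in siSURF2 and 0.355 CPM in siSCR cells, adjusted p = 0.075) except without the siSURF2 library numbered 2 (0.041), and GAS5-AS1 was below the filter.

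RefSeq lists 38 snoRNA genes within the 10 spans: 11 in GAS5, 9 in SNHG1, 4 in SNHG12, 3 each in SNHG16, SNHG29 and ZFAS1, 2 in SNHG5 and 1 each in SNHG6, SNHG8 and SNHG15. The count table had 25 snoRNA rows in these spans. Of the 21 rows that overlap a host exon in GENCODE 29, 20 were at 0 in all 6 libraries. The 4 wholly intronic rows had reads, and 3 of them were tested. SNORD12B, in ZFAS1, had 15, 15 and 27 counts in siSURF2 and 19, 27 and 20 counts in siSCR libraries. SNORD12C, also in ZFAS1, had 11, 5 and 8 counts in siSURF2 and 14, 10 and 9 counts in siSCR libraries, and SNORD99, in SNHG12, had 13, 8 and 12 counts in siSURF2 and 5, 11 and 10 counts in siSCR libraries. All 3 overlapped between the groups. These reads come from polyadenylated libraries and give no level of the mature snoRNA.

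Of 20 other noncoding hosts listed, 19 were tested, and 6 were higher, 0 were lower and 13 did not pass, with a median of 0.14. The 6 make up 31.6% of those tested, beside 25.8% higher over all genes, and 6 of the 19 had fitted values below 0. With ERCC totals as library sizes, 0 of the 19 were called higher by edgeR and 1 was at an unadjusted p under 0.05. At the adjusted threshold, 0 were lower by edgeR with TMM factors, by DESeq2 or by limma-voom, and DESeq2 called 5 higher. At an unadjusted p under 0.05, 0 were lower by edgeR, 0 by DESeq2 and 1 by limma-voom. SNHG19, host of SNORD60, stood at 41.4, 36.6 and 40.6 CPM in siSURF2 and at 28.7, 27.7 and 23.4 CPM in siSCR libraries (log2 fold change 0.57 ± 0.08 SE, adjusted p = 3.32e-07). SNHG32, listed here as a noncoding host but annotated as protein-coding in GENCODE 29, stood at 44.6, 43.9 and 50.5 CPM in siSURF2 libraries. In siSCR libraries SNHG32 stood at 32.9, 33.9 and 29.98 CPM (0.52 ± 0.07 SE, adjusted p = 3.43e-07). Both groups lay apart for these RNAs, with sizes close to those of ZFAS1 and SNHG29. SNHG10, SNHG18, DANCR and SNHG7 were the other 4 that were higher, with log2 fold changes of 0.50, 0.34, 0.29 and 0.26.

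Coding hosts outside the ribosome moved in both directions. Of 30 such genes, 6 were higher, 16 were lower and 8 did not pass, with a median of −0.16. EIF4A2, a translation initiation helicase, was at 368 ± 27.9 CPM in siSURF2 and 198 ± 3.60 CPM in siSCR cells (log2 fold change 0.89 ± 0.05 SE), and EEF1B2, an elongation factor subunit, at 397 ± 3.21 CPM in siSURF2 and 301 ± 9.74 CPM in siSCR cells. RCC1, the nucleotide exchange factor of Ran, was at 76.2 ± 4.69 CPM in siSURF2 and 182 ± 5.42 CPM in siSCR cells (log2 fold change −1.25 ± 0.05 SE), and EEF2, the translocation factor of elongation, at 1351 ± 24.8 CPM in siSURF2 and 2433 ± 93.8 CPM in siSCR cells. Of 28 ribosomal protein genes that hold an annotated snoRNA, 8 were higher (28.6%, near the share over all genes), 0 were lower and 20 did not pass. Their median was 0.057, with 0 lower at an unadjusted p under 0.05 by edgeR and 0 lower by DESeq2 or limma-voom. Of the 51 that hold none, 15 were higher (29.4%), 4 were lower (7.8%) and 32 did not pass, with a median of 0.033. The 192 other coding genes with an annotated snoRNA that were tested had a median of −0.015, with 67 higher (34.9%) and 61 lower (31.8%). Ribosomal protein and elongation factor genes have near-identical processed pseudogenes, so their counts are uncertain where the authors' counting could split them.

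**Figure D4:**
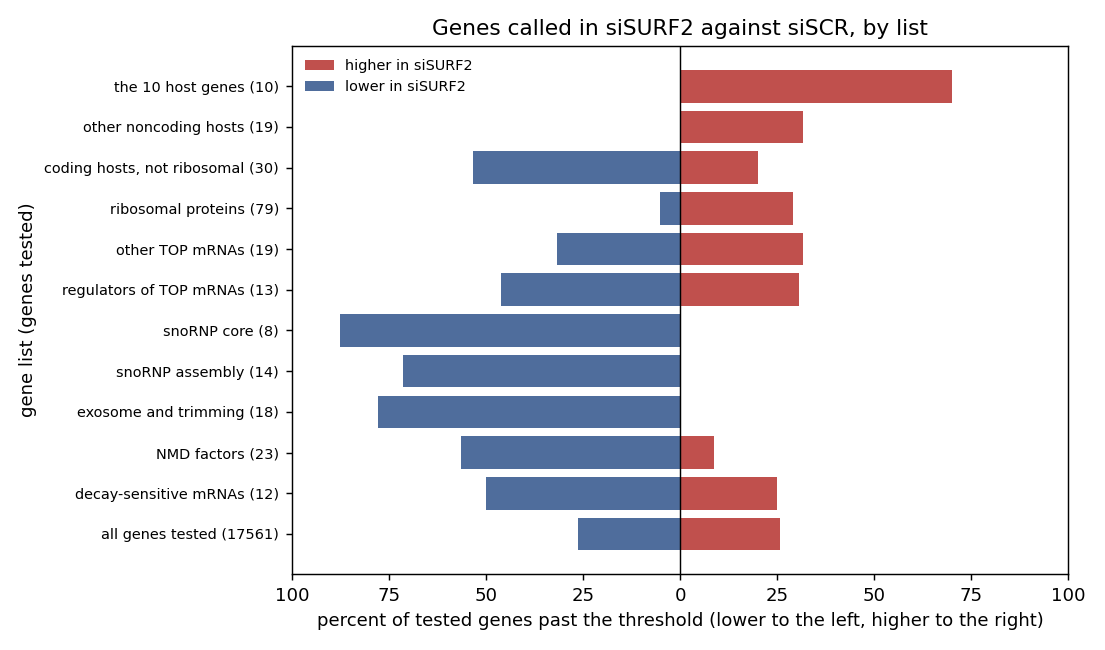
Percent of tested genes in each list that were called higher (red, to the right) or lower (blue, to the left) in siSURF2 against siSCR cells; the number tested is in parentheses. The 10 host genes have 70.0% higher and none lower, the other noncoding hosts 31.6% higher and none lower, and the snoRNP core proteins 87.5% lower and none higher, beside 25.8% higher and 26.2% lower over all genes tested.

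Genes for the proteins that bind and process snoRNAs were lower where they passed. Of 8 core proteins of the snoRNPs, 7 were lower (87.5%, beside 26.2% over all genes) and 0 higher, with a median of −0.33. DKC1, the pseudouridine synthase of the box H/ACA complex and itself a coding host, stood at 85.0, 81.5 and 80.1 CPM in siSURF2 and at 133, 136 and 138 CPM in siSCR libraries, with no overlap (log2 fold change −0.73 ± 0.05 SE, adjusted p = 1.73e-12). GAR1, of the same complex, was at 46.5 ± 2.71 CPM in siSURF2 and 70.1 ± 0.873 CPM in siSCR cells (−0.59 ± 0.06 SE). NOP56, FBL (the methyltransferase), NOP58 and SNU13 of the box C/D complex were lower by smaller amounts, with log2 fold changes of −0.49, −0.32, −0.31 and −0.17. NHP2 was at 94.8 ± 3.79 CPM in siSURF2 and 93.3 ± 0.153 CPM in siSCR cells and did not pass.

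Of 14 snoRNP assembly factors 10 were lower (71.4%, beside 26.2% over all genes) and 0 higher (median −0.25). Among them were NOLC1, a nucleolar chaperone, at −0.52 ± 0.05 SE and RUVBL2, an ATPase of the assembly machinery, at −0.47 ± 0.06 SE on the log2 scale. Of 18 genes of the nuclear exosome and of snoRNA trimming 14 were lower (77.8%) and 0 higher (median −0.26), with EXOSC3 at −0.61 ± 0.06 SE and EXOSC2 at −0.59 ± 0.06 SE. In none of these 3 lists was a gene higher at an unadjusted p under 0.05 by edgeR, or called higher by DESeq2 or limma-voom. With ERCC totals as library sizes, 1 of the 8 core proteins, 0 of the 14 assembly factors and 0 of the 18 exosome and trimming genes were called lower by edgeR (3, 2 and 3 at an unadjusted p under 0.05).

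Factors and targets of the routes known to act on host transcripts moved in both directions. Of 23 nonsense-mediated decay factors, 2 were higher, 13 were lower and 8 did not pass, with a median of −0.14. The shares were 8.7% higher and 56.5% lower, beside 25.8% higher and 26.2% lower over all genes tested. SMG1, the kinase of UPF1, and DHX34 were higher (log2 fold changes of 0.20 ± 0.06 and 0.26 ± 0.08 SE), SMG5 and EIF4A3, a subunit of the exon junction complex, were lower (−0.49 ± 0.05 and −0.45 ± 0.05 SE), and UPF1, the central helicase, stood at 106 ± 3.76 CPM in siSURF2 and 113 ± 7.69 CPM in siSCR cells and did not pass. SMG1 lost its call without the siSCR library numbered 1 (0.14, adjusted p = 0.073) or 2 (0.16, adjusted p = 0.060), and DHX34 without the siSCR library numbered 3 (0.14, adjusted p = 0.097). Of 12 mRNAs known to be sensitive to this decay, 3 were higher and 6 lower (median −0.15): DDIT3 was at 16.1 ± 2.30 CPM in siSURF2 and 11.2 ± 0.756 CPM in siSCR cells (0.53 ± 0.11 SE), whereas MAP3K14 was at 68.1 ± 0.726 CPM in siSURF2 and 94.4 ± 8.74 CPM in siSCR cells (−0.47 ± 0.06 SE).

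Among genes of the classes known for a TOP tract, the 79 cytosolic ribosomal protein genes had 23 higher (29.1%, beside 25.8% over all genes) and 4 lower, with a median of 0.046. With ERCC totals as library sizes, 0 were called in either direction by edgeR, with 0 higher and 1 lower at an unadjusted p under 0.05. RPS19 was at 799 ± 22.7 CPM in siSURF2 and 620 ± 37.2 CPM in siSCR cells, and RPL7 at 899 ± 9.30 CPM in siSURF2 and 1400 ± 69.6 CPM in siSCR cells. Of 19 other TOP mRNAs, 6 were higher and 6 lower (31.6% each, median 0.014). EEF1B2 and TPT1 had log2 fold changes of 0.40 and 0.35, and EEF2 and NPM1 of −0.85 and −0.46. Of 13 regulators of TOP mRNAs, 4 were higher and 6 lower (30.8% and 46.2%, beside 25.8% and 26.2% over all genes), with a median of −0.10. TIA1, an RNA-binding protein, was higher (0.52 ± 0.07 SE), as was EIF4EBP2 (0.44 ± 0.05 SE), CNBP was lower (−0.77 ± 0.05 SE), as was EIF4EBP1 (−0.39 ± 0.07 SE), and LARP1, the repressor of TOP mRNAs, was at 372 ± 13.1 CPM in siSURF2 and 440 ± 16.7 CPM in siSCR cells (−0.24 ± 0.05 SE, adjusted p = 1.36e-04).

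The genes whose levels over the 6 libraries were most like the mean profile of the 10 hosts, among those averaging 4 or more on the log2 CPM scale, were CARD8, RHBDF1, PKD2, TCF25 and BRD9. Their root mean square differences from that profile were 0.032, 0.038, 0.041, 0.043 and 0.044 on the log2 CPM scale. None is a listed snoRNA host, and their log2 fold changes lay between 0.29 and 0.34. The profile includes the difference between the groups, so fold changes near those of the hosts follow from how these genes were chosen.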

How the data were processed

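Polyadenylated RNA of 6 U2OS libraries (3 siSURF2, 3 siSCR) was sequenced. Per the submitters' processing notes, fastp 0.23.1, STAR 2.5.2b and the GRCh38 build were used. The deposited table holds raw, whole-number counts of reads by gene; the counting tool, strand setting and annotation version were not given in the sources used here, and gene IDs were matched to GENCODE 29. ERCC rows, 1.12% to 1.72% of counts, stayed out of library sizes. Genes were filtered with filterByExpr (minimum count 10, total 15) and fitted with edgeR 4.0.16 (R 4.3.3; robust quasi-likelihood test, TMM factors, group only), with Benjamini-Hochberg adjustment over 17561 genes and a threshold of 0.05. CPM values use TMM library sizes. The standard error is the size of the log2 fold change divided by the square root of F; 95% intervals cover the spread between libraries.

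The members and gene lists were chosen with earlier results of these data known. Named genes were the members, genes that overlap them or start within 1 kb, up to 2 genes per direction of each list by adjusted p, and the 5 genes with the most similar profile; others named (among them SNHG10, SNHG18, DANCR, SNHG7, NOP56, FBL, NOP58, SNU13, NHP2, UPF1, LARP1, VIM, MALAT1 and NEAT1) were chosen after their values were seen. A gene that overlaps a member is not reported here. Alternatives were other scalings, filters, DESeq2 1.42.0, limma-voom (limma 3.58.1), a replicate block, left-out libraries and thinned counts.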

Additional observations from a re-analysis of the deposited data

How the results depend on the processing

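With ERCC totals as library sizes, 1629 genes changed, against 9131, and 0 of the 10 hosts were called higher, against 7. The fitted values of GAS5, SNHG29 and ZFAS1 were then 0.35 ± 0.26, 0.54 ± 0.26 and 0.57 ± 0.27 (SE). With TMM factors they were 0.37 ± 0.06, 0.58 ± 0.05 and 0.59 ± 0.06 (SE). With ERCC totals, 0 of the 23 nonsense-mediated decay factors and 0 of the 12 decay-sensitive mRNAs were called in either direction by edgeR. Of the 30 coding hosts outside the ribosome 1 was called higher and 4 lower. Of the 19 other TOP mRNAs, and of the 13 regulators of TOP mRNAs, 0 were called higher and 1 lower. The cause of the lost calls was not tested. Leaving out 1 library at a time gave 8051 to 8775 changed genes, 6 to 8 hosts higher and a host median of 0.28 to 0.43; without both libraries numbered 3 the median was 0.26. The replicate numbers do not pair the samples: same-numbered libraries deviated with correlations of 0.0063, −0.10 and −0.04, 0 libraries correlated best with their own number, and the replicate block gave 9028 changed genes, 7 hosts higher and a median of 0.33. Values that changed sign, none of them past the threshold as reported or with the sign reversed, were SNHG1 (−0.015 to 0.26 over left-out libraries, −0.053 without both numbered 3), ENSG00000266651 (−0.12 to 0.39, and −0.23) and ZNFX1 (0.013 with upper-quartile scaling). Upper-quartile scaling moved the calls to 5154 higher and 3986 lower, against 4535 and 4596. Over 62 named genes and 18 settings, 1040 values kept direction and side of the threshold, 62 fell short of it, 4 newly passed it and 7 changed sign. TRNAU1AP lost its call with upper-quartile scaling (adjusted p = 0.056). Depth limits SNHG12, the snoRNA rows, MCMDC2 and ENSG00000267546.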
